A study of Mus musculus with 6 samples.

Results

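The abundant structural and long noncoding RNAs of the mouse ovary were examined as 10 rows of a table of 44788 genes: Rn7s1, Rn7s2, Rn7sk, Rmrp, Rpph1, Rn18s-rs5, Malat1, Neat1, Meg3 and H19. The rows were chosen by name, with their levels in these ovaries and their genotype difference already known, so the genotype contrast of the 10 is given as a description that supports no claim. RNA-seq of whole ovaries compared 3 wild-type Bnc1+/+ ovaries (replicates 1, 4 and 7) with 3 Bnc1tr/tr ovaries (replicates 1, 2 and 3), all from untreated C57BL/6 J mice at 8 weeks of age. Bnc1tr/tr mice carried, in every cell, a deletion of 5 bases in exon 4 of Bnc1 on both alleles, which shifts the reading frame and leads to an early stop codon, and both genotypes came from matings of Bnc1+/tr mice. The labels do not say whether each library came from a separate mouse or from pooled mice, so p-values measure only the spread between these samples. Bnc1 itself, a zinc finger transcription factor, stood at 13.5 ± 0.406 CPM (counts relative to library size, with TMM normalization) in Bnc1+/+ and 14.6 ± 3.72 CPM in Bnc1tr/tr (mean ± SD, n = 3 each), which does not check the labels, because the deletion lies inside a transcript that is still counted.

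The 10 RNAs fall into groups by what they do. 7SL RNA (rows Rn7s1 and Rn7s2) is the scaffold of the signal recognition particle, which directs secretory and membrane proteins to the endoplasmic reticulum, 7SK RNA (Rn7sk) holds the elongation kinase P-TEFb in an inactive particle, and Rmrp and Rpph1 are the RNA subunits of the ribonucleases MRP and P, which process ribosomal RNA and transfer RNA precursors. These short, folded RNAs are made by RNA polymerase III and lack a poly(A) tail, whereas Malat1 and Neat1 are long RNAs of nuclear speckles and paraspeckles, and Meg3 and H19 are imprinted long RNAs that are expressed from the maternal chromosome. In the mouse ovary, Neat1 and its paraspeckles are known for a role in the formation of the corpus luteum.

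Both rows of 7SL RNA describe the same letters. In the GENCODE M21 annotation of GRCm38, Rn7s1 lies on the plus strand at chr12:69159295-69159594 and Rn7s2 on the minus strand at chr12:69361182-69361481, both are single transcripts of 300 bases with 62.3% G and C, and they have 0 mismatches. A read inside either gene therefore matches both places, and how the counting assigned such reads is not given in the sources used here. 7SK RNA is shown, 5′ to 3′ as DNA letters, because its GATC letters, in capitals, belong to the repeated elements that bind the inhibitor protein HEXIM. The gene lies on the minus strand at chr9:78175303-78175633 and is 331 bases long, of which the first 150 are printed. They held GATC 3 times on the transcript strand, and 0.985% of 135671 annotated transcripts held it at least 3 times in a first stretch of the same length.
Rn7sk: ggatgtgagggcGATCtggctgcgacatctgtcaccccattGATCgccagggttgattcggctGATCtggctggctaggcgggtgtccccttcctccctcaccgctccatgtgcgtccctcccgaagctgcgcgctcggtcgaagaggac

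Rmrp (chr4:43492788-43493058, minus strand, 271 bases) overlaps Ccdc107 on the opposite strand, and Rpph1 (chr14:50807449-50807767, minus strand, 319 bases) lies inside Ccnb1ip1 on the same strand. The strand setting of the counting is not given in the sources used here, so reads of such overlapping genes may not be separable. Rn18s-rs5 is listed by RefSeq on GRCm38.p6 as a pseudogene of 1849 bases at chr17:39846354-39848202, where GENCODE M21 annotates an rRNA gene (CT010467.1) and the lincRNAs Gm42418 and AY036118. The row collects reads that resemble 18S ribosomal RNA and cannot be traced to one rDNA copy. Malat1 (chr19:5795690-5802672, 6983 bases) and Neat1 (chr19:5824708-5845478, 20771 bases) are neighbours on the minus strand, Meg3 lies at chr12:109541001-109571726 on the plus strand with a longest transcript of 14548 bases, and H19 at chr7:142575529-142578143 on the minus strand with a longest transcript of 2286 bases.

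The ovaries held 25247770 to 34406296 counts in all. Of the 44788 genes, 31717 had counts and 19423 passed the filter on low counts, including all 10 noncoding RNAs, though Rn7s1 and Rn7s2 had at most 6 and 9 counts in any Bnc1tr/tr ovary and passed through their Bnc1+/+ counts. Sampling noise did not cover the differences between libraries of one genotype, so none was counted as a duplicate. Markers of oviduct epithelium summed to 512.2 CPM in Bnc1tr/tr replicate 3 and 137.8 CPM in Bnc1+/+ replicate 1, against 10.6 to 27.1 CPM in the other ovaries, and their part in the levels given here was not tested. Bulk tissue was sequenced, so fewer cells of a type and less RNA per cell cannot be told apart.

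The clearest feature of the short structured RNAs was the spread inside the Bnc1+/+ group. 7SL, 7SK, Rmrp, Rpph1 and Rn18s-rs5 all stood highest in Bnc1+/+ replicate 1, next in replicate 4 and lowest in replicate 7 of the wild-type ovaries, and replicate 7 was within or close to the range of the Bnc1tr/tr ovaries for each of them except 7SL. In contrast, the 4 long noncoding RNAs varied by 1.70-fold or less within Bnc1+/+. Malat1 and Neat1 were lower and Meg3 was higher in Bnc1tr/tr, with no overlap between genotypes.

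**Figure D1:**
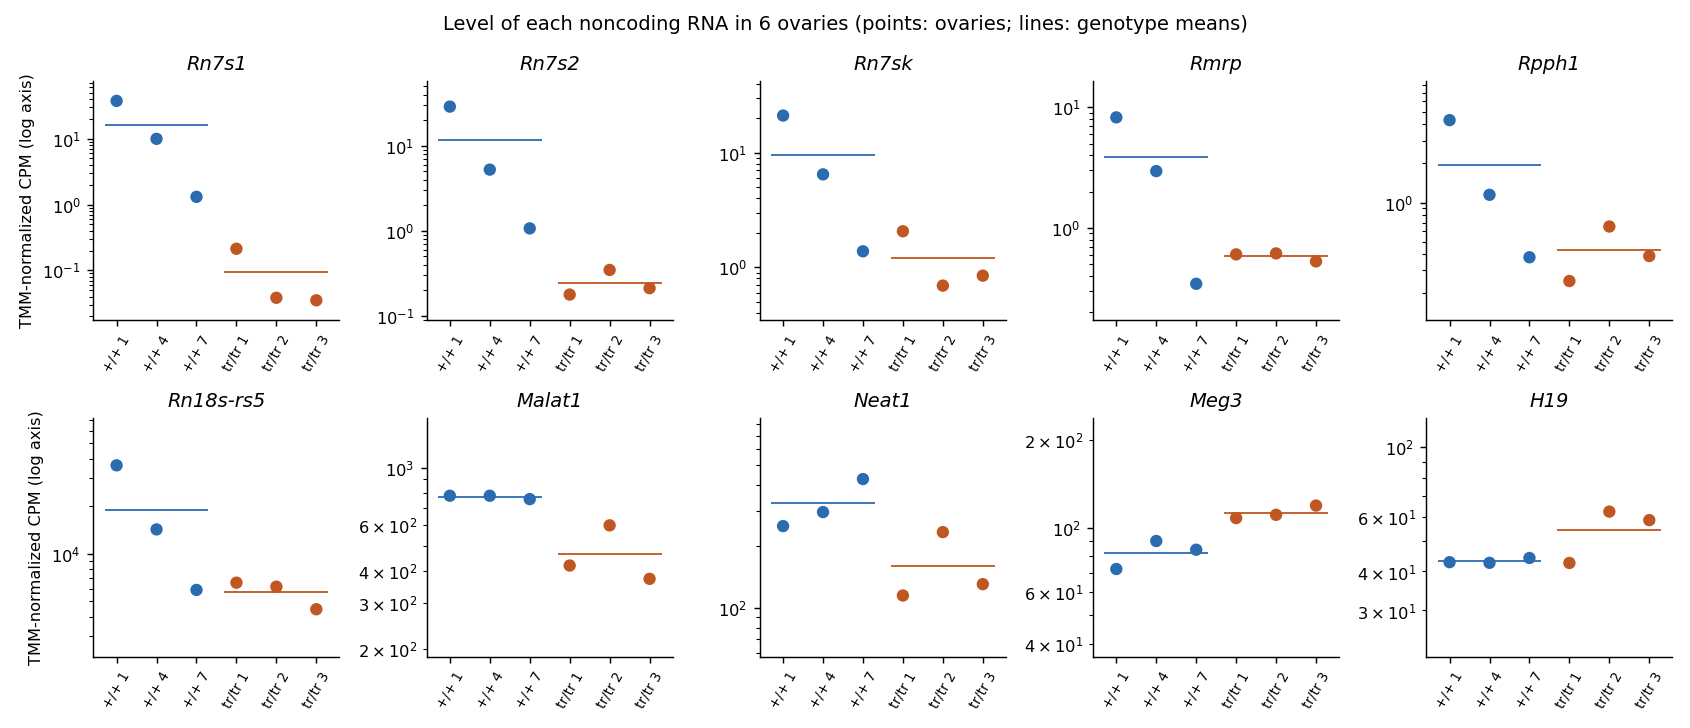
TMM-normalized CPM (log axis) of the 10 noncoding RNAs in the 3 Bnc1+/+ ovaries (blue) and the 3 Bnc1tr/tr ovaries (orange); each point is 1 ovary and each line a genotype mean. Rn7s1 ran from 37.4 CPM to 1.31 CPM within Bnc1+/+, whereas Malat1 stayed between 755.2 and 778.5 CPM there.

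Rn7s1 had 1008, 329 and 38 counts in wild-type replicates 1, 4 and 7, whereas mutant replicates 1, 2 and 3 had 6, 1 and 1, which is 37.4, 9.93 and 1.31 CPM against 0.213, 0.0385 and 0.0352 CPM. A count of 1 has an exact 95% Poisson interval of 0.0253 to 5.57 counts, which covers counting error only. Every Bnc1+/+ value lay above every Bnc1tr/tr value, with the wild-type ovaries spread over 28.6-fold. Rn7s2 had 780, 174 and 31 counts against 5, 9 and 6, or 29.0, 5.25 and 1.07 CPM against 0.178, 0.346 and 0.211 CPM. It too showed no overlap, and its Bnc1+/+ ovaries were spread over 27.1-fold.

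Since the letters of both rows are the same, their sum is the better measure of 7SL RNA. The summed counts were 1788, 503 and 69 in wild type against 11, 10 and 7 in the mutant, that is 66.4, 15.2 and 2.38 CPM against 0.391, 0.385 and 0.246 CPM. The lowest wild-type ovary remained above the highest mutant ovary. The log2 ratio of the genotype means was -6.36, and it was -4.70 without Bnc1+/+ replicate 1 and -2.80 without replicates 1 and 4, an omission chosen after the data were seen. Rn7s1 held 56.4% of the pair in Bnc1+/+ replicate 1 (exact Clopper-Pearson 95% interval 54.0% to 58.7%) and 65.4% in replicate 4 (61.1% to 69.6%). In Bnc1tr/tr replicate 2 the share was 10% (0.253% to 44.5%) of 10 counts, an interval below those of Bnc1+/+ replicates 1 and 4 that overlaps that of replicate 7 (42.6% to 67.1%). These intervals cover counting error only, and with the same letters in both rows the share describes how reads were assigned.

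Rn7sk, the 7SK RNA shown above with its GATC elements, had 566, 214 and 40 counts in the wild-type ovaries and 58, 18 and 24 in the mutant ovaries, or 21.02, 6.46 and 1.38 CPM against 2.06, 0.692 and 0.845 CPM. Bnc1+/+ replicate 7 lay below Bnc1tr/tr replicate 1, so the genotypes overlapped. Rmrp had 8.24, 2.96 and 0.345 CPM in Bnc1+/+ and 0.604, 0.615 and 0.528 CPM in Bnc1tr/tr, and Bnc1+/+ replicate 7 was the lowest of all 6 ovaries on 10 counts. Rpph1 had 4.31, 1.15 and 0.379 CPM against 0.249, 0.654 and 0.387 CPM, on 11 counts in Bnc1+/+ replicate 7. Both ribonuclease RNAs were thus high in wild-type replicates 1 and 4, while wild-type replicate 7 was at the mutant level. The Bnc1tr/tr ovaries were close together for Rmrp, with a highest value 1.17 times the lowest, and less so for Rpph1 and Rn7sk at 2.63 and 2.98 times.

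Rn18s-rs5 was the most abundant of the 10 rows at 36267, 14258 and 5906 CPM in Bnc1+/+ and 6564, 6192 and 4457 CPM in Bnc1tr/tr. The groups overlapped, since Bnc1+/+ replicate 7 lay below 2 of the 3 Bnc1tr/tr ovaries. The row alone made up 81.8% to 96.7% of the counts of the 10 RNAs in an ovary. The 10 rows held 3.59%, 1.49% and 0.706% of the counts of Bnc1+/+ replicates 1, 4 and 7 and 0.751%, 0.742% and 0.534% in Bnc1tr/tr, and without Rn18s-rs5 the shares were 0.119%, 0.119% and 0.129% against 0.0711%, 0.104% and 0.0709%. Whether ribosomal RNA was removed before sequencing is not given in the sources used here.

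**Figure D2:**
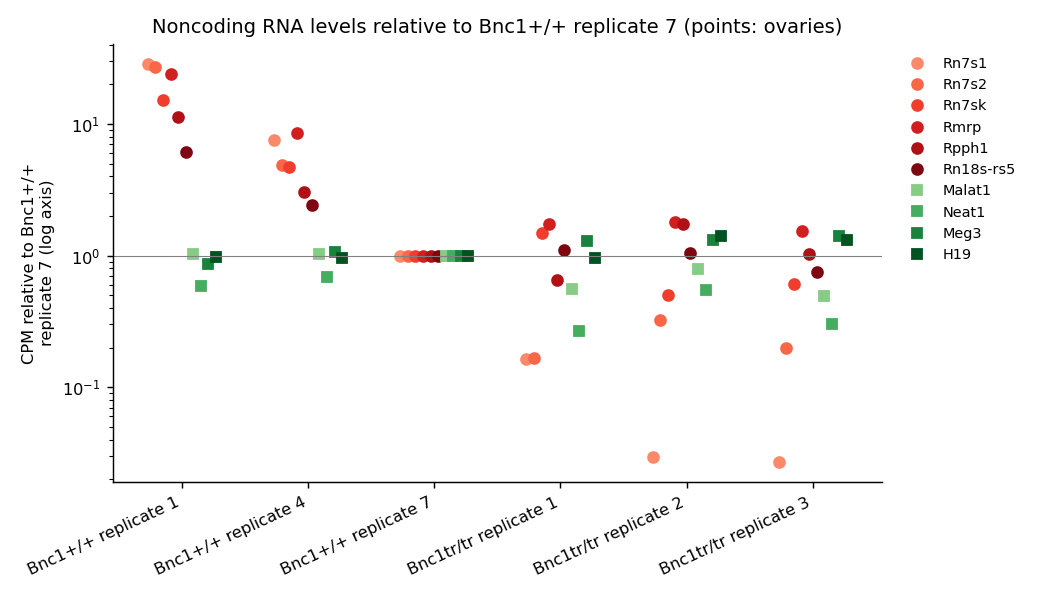
CPM of each noncoding RNA divided by its CPM in Bnc1+/+ replicate 7 (log axis), with 1 point per ovary; circles are the 6 structural rows and squares the 4 long noncoding RNAs. In Bnc1+/+ replicate 1 the structural rows were at 6.14 to 28.6 times the level of replicate 7. Across the 3 wild-type ovaries Malat1 and H19 were within 1.04-fold, while Meg3 and Neat1 varied by 1.25-fold and 1.70-fold.

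The spread of the structural rows was large for the table as a whole. On log2 CPM, the SD over the 3 Bnc1+/+ ovaries was 2.40 for Rn7s1, 2.34 for Rn7s2, 2.20 for Rmrp, 1.94 for Rn7sk, 1.65 for Rpph1 and 1.31 for Rn18s-rs5, against a median of 0.149 over all genes tested. These SDs lay at or above the 99.3 percentile of all genes tested. Over the Bnc1tr/tr ovaries the same rows had SDs of 0.81, 0.39, 0.11, 0.79, 0.59 and 0.30, in the same order of rows, against a median of 0.190. Their percentiles were 95.5, 78.9, 26.1, 95.1, 90.4 and 69.4, so Rn7s1, Rn7sk and Rpph1 were widely spread in the mutant too. The prior count of 2 narrows the mutant SDs of Rn7s1 and Rn7s2, which had at most 6 and 9 counts there. The SDs of Malat1 and H19 over Bnc1+/+ were 0.025 and 0.028, at percentiles 2.99 and 3.73. Those of Meg3 and Neat1 were 0.163 and 0.394, at percentiles 54.2 and 86.2, so the long RNAs were not alike in their spread.

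Malat1, a nuclear speckle RNA whose 3′ end is protected by a triple helix in place of a poly(A) tail, had 778.5, 778.4 and 755.2 CPM in Bnc1+/+ and 418.7, 598.3 and 371.9 CPM in Bnc1tr/tr. All wild-type values lay above all mutant values, and the mutant ovaries were spread over 1.61-fold against 1.03-fold in wild type. The means were 770.7 ± 13.4 CPM and 462.9 ± 119.5 CPM (SD, n = 3 each). Neat1, the RNA around which paraspeckles are built, had 251.9, 295.0 and 428.6 CPM in Bnc1+/+ and 114.9, 235.2 and 130.6 CPM in Bnc1tr/tr. The groups did not overlap, with Bnc1+/+ replicate 1 just above Bnc1tr/tr replicate 2. Neat1 had its highest wild-type value in replicate 7, the ovary with the lowest wild-type values of the short RNAs.

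The level of Neat1 and the markers of luteal cells had the same order over the 6 ovaries. Of the 10 luteal markers, all detected, 8 were lower in Bnc1tr/tr by edgeR's quasi-likelihood test, beside 4.19% of all genes. The 10 summed to 15766, 19835 and 19934 CPM in Bnc1+/+ replicates 1, 4 and 7. They summed to 3494, 6953 and 5626 CPM in Bnc1tr/tr replicates 1, 2 and 3. For both measures the order from high to low was Bnc1+/+ replicates 7, 4 and 1 and then Bnc1tr/tr replicates 2, 3 and 1. The luteal sums of Bnc1+/+ replicates 7 and 4 were nearly equal, however, whereas Neat1 had 428.6 and 295.0 CPM there. Their shared order in these ovaries thus rests on a small gap. Malat1 also had its highest mutant value in replicate 2, but its wild-type values were nearly equal. The luteal set was among several marker sets summed, all chosen with earlier results of these data known. The 8 luteal calls are thus no independent support. The markers and Neat1 come from the same libraries, and the part of luteal tissue in the levels of either RNA was not tested.

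**Figure D3:**
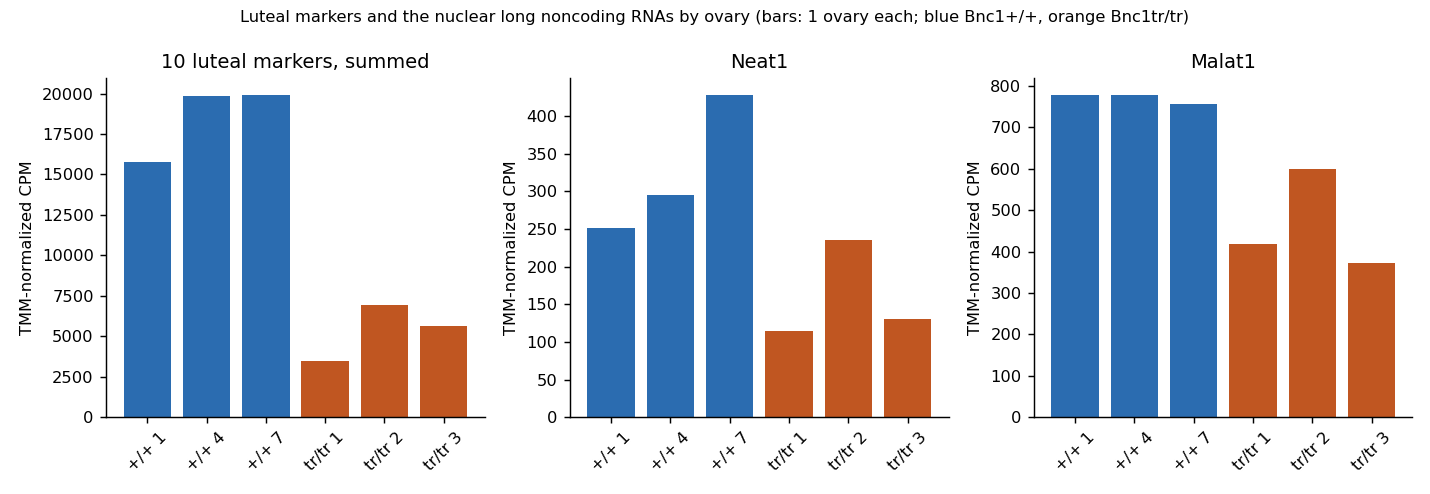
Bars show TMM-normalized CPM in each ovary (blue Bnc1+/+, orange Bnc1tr/tr, axes from 0) for the sum of 10 luteal markers, Neat1 and Malat1. The luteal sum lay between 15766 and 19934 CPM in Bnc1+/+ and between 3494 and 6953 CPM in Bnc1tr/tr. Neat1 shared its order over the 6 ovaries, though the luteal sums of Bnc1+/+ replicates 4 and 7 were nearly equal.

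Meg3, which lies in the imprinted Dlk1-Dio3 domain, was the row with higher values in every Bnc1tr/tr ovary: 72.1, 89.9 and 83.9 CPM in Bnc1+/+ and 107.7, 110.5 and 118.9 CPM in Bnc1tr/tr. The means were 82.0 ± 9.07 CPM and 112.4 ± 5.83 CPM (SD, n = 3 each), and the spread inside each group was 1.25-fold and 1.10-fold. H19, which carries the microRNA Mir675, had 42.9, 42.6 and 44.2 CPM in Bnc1+/+ and 42.6, 62.3 and 58.4 CPM in Bnc1tr/tr. Bnc1tr/tr replicate 1 was at the wild-type level and the other mutant ovaries were above it, so H19 overlapped between genotypes. The 8 stroma markers, all detected, summed to 3011, 2507 and 2918 CPM in Bnc1+/+ and 2510, 3773 and 3381 CPM in Bnc1tr/tr, so they too were highest in Bnc1tr/tr replicates 2 and 3, and their part in the level of H19 was not tested.

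Levels can be compared between RNAs only per length, here as CPM per kilobase of the longest annotated transcript. In Bnc1+/+ the mean order was Rn18s-rs5 at 10173, Malat1 at 110.4, Rn7s1 at 54.1, Rn7s2 at 39.2, Rn7sk at 29.1, H19 at 18.9, Neat1 at 15.7, Rmrp at 14.2, Rpph1 at 6.10 and Meg3 at 5.63 CPM per kilobase. In Bnc1tr/tr the order was Rn18s-rs5 at 3103, Malat1 at 66.3, H19 at 23.8, Meg3 at 7.73, Neat1 at 7.71, Rn7sk at 3.62, Rmrp at 2.15, Rpph1 at 1.35, Rn7s2 at 0.817 and Rn7s1 at 0.319 CPM per kilobase. Rn7s1, Rn7s2, Rn7sk, Rmrp and Rpph1 overlapped one another across the Bnc1+/+ ovaries. In each of these ovaries Rn7s1 was above Rn7s2, and Rn7sk was above Rmrp and Rmrp above Rpph1. The order of Rn7s1 and Rn7s2 describes how reads of the same letters were assigned. In Bnc1+/+ replicate 7, that of Rmrp and Rpph1 rests on 10 and 11 counts. H19 lay above Rpph1 in every Bnc1+/+ ovary with no overlap, and Meg3 and Neat1 did not differ beyond their spread in Bnc1tr/tr. These values do not correct for how well RNAs of different length enter a library.

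As a description of the contrast that chose the rows, the log2 fold changes of Bnc1tr/tr against Bnc1+/+ in the fit over all genes were -7.32 (SE 1.44) for Rn7s1, -5.57 (1.25) for Rn7s2, -2.99 (0.91) for Rn7sk, -2.71 (0.92) for Rmrp, -2.16 (0.84) for Rpph1 and -1.71 (0.57) for Rn18s-rs5. They were -0.74 (0.17) for Malat1, -1.02 (0.30) for Neat1, 0.46 (0.10) for Meg3 and 0.33 (0.14) for H19. Of the 10 rows, 4 were past an adjusted p of 0.05 (Rn7s1, Rn7s2 and Malat1 lower, Meg3 higher), beside 7.06% of all 19423 genes tested, and 5 did not overlap between genotypes, beside 30.8% of all genes; nothing is read from either count, since the contrast chose the rows. The count past the threshold was 2, 0 and 5 without Bnc1+/+ replicate 1, 4 or 7, beside 3.93%, 1.6% and 2.59% of all genes, and 1, 2 and 0 without Bnc1tr/tr replicate 1, 2 or 3, beside 4.89%, 6.4% and 3.18%. It was 7 with DESeq2 (12.5% of all genes), 6 without a filter (4.82%), 2 of 7 tested with at least 10 counts in every ovary (6.7%), 3 when scaled by library size alone (8.9%), 4 with DESeq2 size factors (7.09%), 4 with the 10 rows left out of the scaling (7.08%) and 0 without both Bnc1+/+ replicates 1 and 4 (0.206%). The median log2 fold change was -1.94 over the 10 rows and 0.018 over all genes tested.

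Log2 fold changes were also fitted with ovaries left out. That of Rn7s1 ranged from -8.62 to -5.81 and that of Rn7s2 from -6.12 to -3.69 without 1 ovary. With 1 ovary left out, the log2 fold change of Rn7sk ranged from -3.63 to -1.72, that of Rmrp from -3.26 to -1.52, that of Rpph1 from -2.66 to -0.85 and that of Rn18s-rs5 from -2.15 to -0.82, and each was nearest 0 without Bnc1+/+ replicate 1. Malat1 stayed between -0.96 and -0.60, Neat1 between -1.41 and -0.78, Meg3 between 0.36 and 0.52 and H19 between 0.22 and 0.48. With both Bnc1+/+ replicates 1 and 4 left out, a choice made after seeing the data that sets 1 ovary against 3, the values were 0.74 for Rmrp, 0.17 for Rpph1, -0.05 for Rn18s-rs5 and -0.21 for Rn7sk. They were -0.71 for Malat1, -1.43 for Neat1, 0.41 for Meg3 and 0.29 for H19, and Rn7s1 and Rn7s2 remained at -3.71 and -2.12. The structural rows were highest in the omitted ovaries, so their upward shift was built into that choice.

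**Figure D4:**
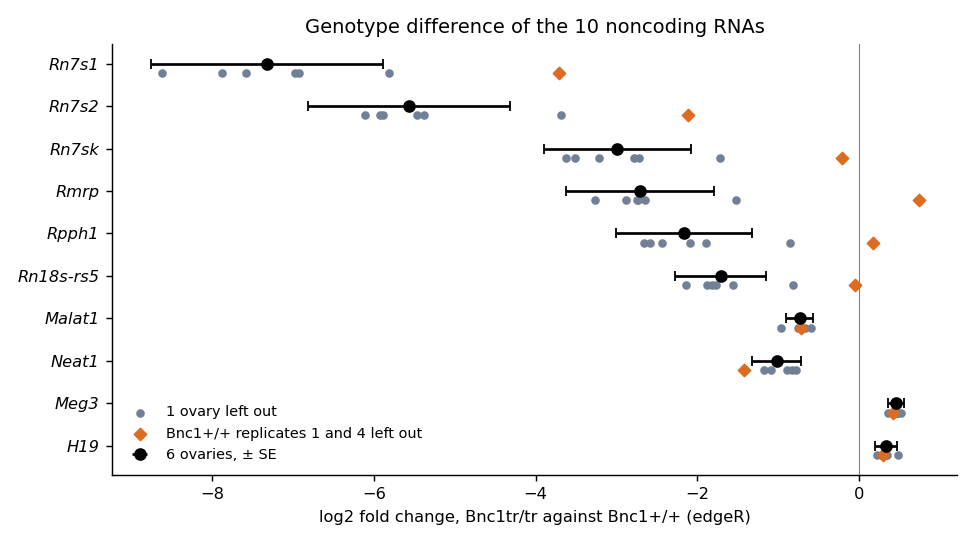
Log2 fold change of Bnc1tr/tr against Bnc1+/+ for the 10 noncoding RNAs in edgeR's fit, with black points and bars for all 6 ovaries ± SE, grey points for 1 ovary left out and orange diamonds for Bnc1+/+ replicates 1 and 4 left out. In the last case, an omission chosen after the data were seen, Rmrp and Rpph1 changed sign, to 0.74 and 0.17. All other rows kept their sign, with Rn7sk and Rn18s-rs5 at -0.21 and -0.05 and Rn7s1 and Rn7s2 at -3.71 and -2.12.

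Among other small structured RNAs, a list of 156 snoRNAs, scaRNAs, spliceosomal RNAs, Y RNAs and similar genes, 152 were in the table and 63 passed the filter. Of these, 4 were lower in Bnc1tr/tr and 0 were higher by edgeR's quasi-likelihood test after Benjamini-Hochberg adjustment, beside 4.19% of all genes lower and 2.88% higher. The median log2 fold change was -0.48 against 0.018 over all genes, 55 of the 63 were negative, and 20 had an unadjusted p under 0.05, beside 4698 of all 19423 genes. Of the 4, Snord17 and Snord14c had at most 6 counts in a mutant ovary and passed the filter through their Bnc1+/+ counts. There was no overlap in 25 of the 63 with lower values in Bnc1tr/tr, beside 15.8% of all genes, and in 0 with higher values, beside 15% of all genes. Requiring at least 10 counts in every ovary left 45 tested. Some other rows, such as Snord87 with 8, 4 and 9 mutant counts, also passed the filter through their Bnc1+/+ counts. The median, the signs and the overlaps rest in part on such rows, which limits what they can support. The list summed to 143.5, 104.2 and 84.2 CPM in Bnc1+/+ and 64.1, 70.0 and 68.0 CPM in Bnc1tr/tr. Bnc1+/+ replicate 1 was the highest of the 6 ovaries in 28 of the 63, or 44.4%, against 12.2% of all genes tested. The order of replicates 1, 4 and 7 seen in the short RNAs above held in 27, or 42.9%, against 19.8%. Rows that passed the filter through their Bnc1+/+ counts favour a wild-type ovary as the highest. The first share thus has the same limit, and neither share was computed without such rows.

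The 4 snoRNAs called lower, of 63 rows tested and beside 4.19% of all genes, belong to the box C/D family. Nothing about the list is read from that count. Guides of this family direct 2′-O-methylation of other RNAs, and most mouse snoRNAs of this kind are cut from the introns of host genes. The sequences of the 4 are shown 5′ to 3′ as DNA letters from GENCODE M21 transcripts, with the first TGATGA (the core of box C) and the last CTGA (box D) in capitals. On the transcript strand, 24% of 1507 annotated snoRNA transcripts and 0.467% of the first 72 bases of 140880 annotated transcripts held TGATGA followed by CTGA, and a match describes letters only. Snord49a lies at chr11:62603450-62603521 on the plus strand inside 2410006H16Rik, Snord100 at chr10:23785750-23785823 on the minus strand inside Rps12, Snord17 at chr2:144265979-144266216 on the minus strand inside Snx5, and Snord14c at chr9:40803583-40803668 on the plus strand inside Hspa8.
Snord49a: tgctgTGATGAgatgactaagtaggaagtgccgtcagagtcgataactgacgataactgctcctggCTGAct
Snord100: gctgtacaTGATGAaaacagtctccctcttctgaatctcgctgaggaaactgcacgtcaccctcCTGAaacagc
Snord17: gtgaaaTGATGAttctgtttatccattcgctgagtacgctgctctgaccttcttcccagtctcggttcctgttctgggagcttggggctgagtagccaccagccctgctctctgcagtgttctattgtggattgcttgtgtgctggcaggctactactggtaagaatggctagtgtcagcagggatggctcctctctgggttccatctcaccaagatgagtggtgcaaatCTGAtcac
Snord14c: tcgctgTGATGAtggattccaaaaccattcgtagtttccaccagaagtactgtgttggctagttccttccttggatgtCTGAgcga

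Snord49a had 3.34, 2.63 and 2.89 CPM in Bnc1+/+ and 0.817, 0.807 and 0.845 CPM in Bnc1tr/tr, with a log2 fold change of -1.84 (SE 0.23, edgeR adjusted p = 0.0053). Unlike 7SL RNA it was tight in both genotypes, and it passed the threshold with any 1 ovary left out. Its host 2410006H16Rik stood at 42.8 ± 2.57 and 41.8 ± 1.83 CPM (SD, n = 3 each), with a log2 fold change of -0.03 (SE 0.08, edgeR adjusted p = 0.837). Snord100 had 2.60, 1.72 and 1.52 CPM against 0.711, 0.731 and 0.951 CPM (log2 fold change -1.28, SE 0.30, edgeR adjusted p = 0.0465), and its adjusted p was 0.0896 to 0.139 with any 1 ovary left out. Its host Rps12, a protein of the small ribosomal subunit, had a log2 fold change of 0.35 (edgeR adjusted p = 0.428).

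Snord17 resembled 7SL RNA in its spread, with 4.34, 1.63 and 0.448 CPM in Bnc1+/+ and 0.213, 0.0769 and 0.106 CPM in Bnc1tr/tr. It had 6, 2 and 3 counts in the mutant ovaries and passed the filter through its wild-type counts, which limits what its test can support. Its log2 fold change was -3.96 (SE 0.89, edgeR adjusted p = 0.0403), and it passed the threshold without Bnc1+/+ replicate 7 (0.0208) and with no other single ovary left out (0.0732 to 0.120). Snord14c, named after its values were seen because its mean was under 1 CPM, had 0.668, 0.694 and 0.586 CPM against 0.142, 0.0769 and 0.106 CPM. It had 4, 2 and 3 counts in the mutant ovaries, with the same limit. Its log2 fold change was -2.53 (SE 0.37, edgeR adjusted p = 0.0090), and the adjusted p was 0.0618 without Bnc1+/+ replicate 4. The host genes Snx5 and Hspa8, which encode a sorting nexin and a chaperone, had log2 fold changes of -0.36 and 0.17 (edgeR adjusted p = 0.246 and 0.371). The difference between each snoRNA and its host was not tested.

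Other small RNAs with the same order over the wild-type ovaries were also picked after their values were seen. Among those that passed the filter, the snoRNAs Snord22 and Snora65 had 284, 155 and 87 counts against 90, 85 and 100, and 309, 291 and 199 counts against 182, 190 and 186, and both overlapped between genotypes. Among those that did not pass it, the U3 row Rnu3b4 had 125, 27 and 1 counts against 0, 7 and 2, and the Y RNA Rny3 had 66, 18 and 5 against 1, 2 and 9. The minor spliceosome RNA Rnu11 had 33, 12 and 9 counts against 0, 6 and 7. Rnu3b4 and Rny3 overlapped between genotypes and Rnu11 did not, and U3 and Y RNAs have near-identical copies in the genome among which counts may be split.

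**Figure D5:**
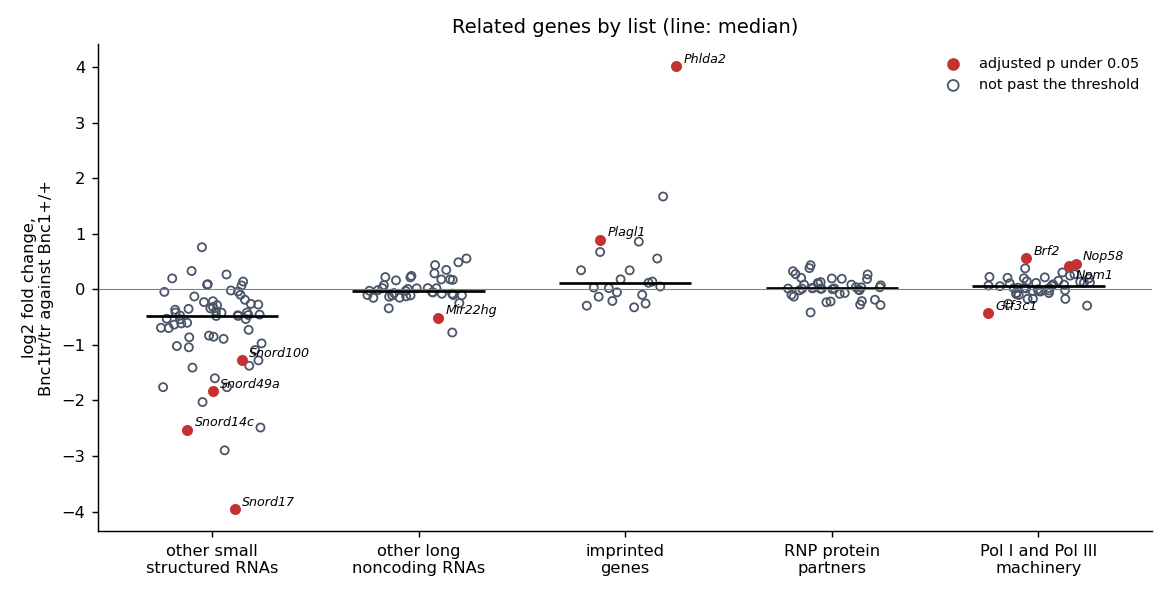
Log2 fold change of Bnc1tr/tr against Bnc1+/+ for the tested genes of 5 related lists, with 1 point per gene, a black line at each list's median and filled red points for genes past an adjusted p of 0.05. The small structured RNAs had a median of -0.48, which rests in part on rows that passed the filter through their Bnc1+/+ counts. The other lists had medians near 0. The small structured RNAs had 4 genes past the threshold, and the other lists had 0 to 4 each.

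The proteins that bind these RNAs were examined next. Of 40 tested partners, 0 passed the threshold in edgeR's quasi-likelihood test after Benjamini-Hochberg adjustment, 7 had an unadjusted p under 0.05 and DESeq2 called 2. Beside these counts, 7.06% of all genes were called by edgeR, 4698 of 19423 had an unadjusted p under 0.05, and DESeq2 called 12.5%. The medians were 0.02 over 10 proteins of the signal recognition particle and its receptor, -0.01 over 7 proteins of the 7SK particle, 0.01 over 11 subunits of the ribonucleases P and MRP, and 0.08 over 12 proteins of speckles and paraspeckles. Srp9 and Srp14, which bind the Alu part of 7SL RNA, had log2 fold changes of 0.11 (SE 0.09) and -0.23 (SE 0.14). Larp7, the protein that stabilises 7SK RNA, stood at 36.4 ± 3.76 and 36.3 ± 3.57 CPM (SD, n = 3 each). Sfpq, a paraspeckle protein, had a log2 fold change of 0.44 (SE 0.11, edgeR adjusted p = 0.0536).

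Of the machinery that makes these RNAs, 2 genes were higher and 0 lower of 19 of RNA polymerase I and rRNA processing, and 1 was higher and 1 lower of 26 of RNA polymerase III, beside 2.88% higher and 4.19% lower of all genes. Brf2, a factor for polymerase III promoters of the type used by 7SK, rose from 20.6 ± 1.34 to 30.4 ± 3.54 CPM (log2 fold change 0.56, SE 0.11, edgeR adjusted p = 0.0292). Gtf3c1, the largest subunit of TFIIIC, fell from 341.6 ± 40.7 to 253.9 ± 7.36 CPM (-0.43, SE 0.10, edgeR adjusted p = 0.0469). Npm1 and Nop58, proteins of the nucleolus, rose by 0.41 (SE 0.081) and 0.46 (SE 0.11) on the log2 scale (edgeR adjusted p = 0.0271 and 0.0481). None of these calls survived every omission of 1 ovary. The number past the threshold was 2 without Bnc1tr/tr replicate 2 (beside 6.4% of all genes), 1 without Bnc1tr/tr replicate 1 (4.89%) and 0 without Bnc1tr/tr replicate 3 (3.18%). It was 0 without Bnc1+/+ replicate 1, 4 or 7, beside 3.93%, 1.6% and 2.59% of all genes.

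Of 39 other long noncoding RNAs tested, 1 was lower and 0 were higher in Bnc1tr/tr, beside 4.19% and 2.88% of all genes, with a median log2 fold change of -0.02. Mir22hg, the host RNA of a microRNA, fell from 18.7 ± 1.20 to 13.1 ± 0.991 CPM (-0.52, SE 0.11, edgeR adjusted p = 0.0330), and its adjusted p was 0.0597 to 0.140 with any 1 ovary left out. Of 21 imprinted genes tested beside Meg3 and H19, 2 were higher and 0 lower, beside 2.88% and 4.19% of all genes, with a median of 0.12, and DESeq2 called 6, beside 12.5% of all genes. Rian, Mirg, Kcnq1ot1, Airn and Peg13 are counted in both lists. Phlda2, which restrains placental growth and lies in an imprinted cluster near H19, had 0.223, 0.181 and 0.207 CPM in Bnc1+/+ and 4.73, 2.19 and 3.13 CPM in Bnc1tr/tr (log2 fold change 4.02, SE 0.39, edgeR adjusted p = 0.0024). It had 6 counts in each Bnc1+/+ ovary and passed the filter through its Bnc1tr/tr counts, which limits what its test can support. Plagl1, a zinc finger regulator of other imprinted genes, had 33.7, 35.0 and 43.8 CPM against 76.4, 62.9 and 69.3 CPM (0.89, SE 0.13, edgeR adjusted p = 0.0076, and 0.0586 without Bnc1+/+ replicate 4). Both had higher values in every Bnc1tr/tr ovary than in any Bnc1+/+ ovary, as did 15% of all genes tested.

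Genes that share a domain with Meg3 or H19 did not pass the threshold with edgeR and TMM. Rian, Dlk1 and Dio3 passed it with DESeq2 (adjusted p = 0.0100, 0.0015 and 0.0067), which called 12.5% of all genes. With edgeR they passed when scaled by library size alone (adjusted p = 0.0335, 0.0472 and 0.0401, beside 8.9% of all genes). They also passed without a filter (0.0463, 0.0338 and 0.0441, beside 4.82%). All 3 failed with DESeq2 size factors, with at least 10 counts in every ovary and with the 10 rows left out of the scaling. With 1 ovary left out, Rian passed only without Bnc1tr/tr replicate 2, Dlk1 only without Bnc1tr/tr replicate 1, and Dio3 in no case. In the domain of Meg3, Rian had 24.2, 30.5 and 23.9 CPM in Bnc1+/+ and 44.5, 33.1 and 38.0 CPM in Bnc1tr/tr (0.56, SE 0.14, edgeR adjusted p = 0.0598). The transmembrane protein gene Dlk1 had 2.34, 2.78 and 1.93 CPM against 3.45, 12.6 and 6.48 CPM (1.67, SE 0.44, edgeR adjusted p = 0.0639), and Dio3, which inactivates thyroid hormone, had 6.98, 6.91 and 6.58 CPM against 17.02, 10.8 and 9.37 CPM (0.86, SE 0.22, edgeR adjusted p = 0.0626). Rian, Dlk1 and Dio3 were higher in each mutant ovary than in any wild-type ovary, as were 15% of all genes tested. Meg3 and Rian are expressed from the maternal chromosome and Dlk1 from the paternal one. Mirg, which hosts microRNAs, stood at 1.37, 3.98 and 2.52 CPM against 3.30, 2.58 and 2.15 CPM, with overlap. Igf2, the neighbour of H19, had 10.21, 11.8 and 12.1 CPM against 18.2, 13.7 and 11.5 CPM (0.34, SE 0.18, edgeR adjusted p = 0.290).

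The genes that overlap the ribonuclease RNAs are given because their reads may not be separable. Ccdc107 stood at 44.8 ± 1.90 CPM in Bnc1+/+ and 46.3 ± 1.74 CPM in Bnc1tr/tr (SD, n = 3 each), while Rmrp on its opposite strand had the spread given above. Ccnb1ip1, a meiotic crossover factor whose span contains Rpph1, had 3, 5 and 5 counts against 24, 17 and 16, and its log2 fold change was 2.21 (SE 0.37, edgeR adjusted p = 0.0146). With at most 5 counts in any Bnc1+/+ ovary it passed the filter through its Bnc1tr/tr counts, which limits what its test can support. It passed the threshold with any 1 Bnc1tr/tr ovary left out, but not without Bnc1+/+ replicate 1, 4 or 7 (0.0554, 0.0885 and 0.0608).

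By Pearson's r of log2 CPM over the 6 ovaries among 16739 genes, the genes most like Rn7s1 were Snord17 (0.995), 1700008J07Rik (0.991) and Rabif (0.991). Those most like Rn18s-rs5 were Snord83b (0.996), LOC102639045 (0.996) and Plaur (0.990). LOC102639045 had 204.9, 59.3 and 22.4 CPM in Bnc1+/+ and 21.9, 18.8 and 15.3 CPM in Bnc1tr/tr, which is the pattern of Rn18s-rs5 at a far lower level. Those most like Neat1 were Ppp6r2 (0.997), Pcdhga1 (0.997) and Tbc1d22a (0.995), and those most like H19 were Leprel2 (0.993), Wdr60 (0.993) and Gm6032 (0.991). These values describe 6 libraries of differing depth that share genotype, and among so many genes high values arise readily.

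The 70 rows of replication-dependent histone genes, chosen by symbol and mostly without a poly(A) tail, did not share the wild-type order. Whether the tail has a part in either pattern was not tested. They summed to 270.6, 268.3 and 273.9 CPM in Bnc1+/+ and 97.9, 178.4 and 148.6 CPM in Bnc1tr/tr, and 6 of the 37 tested were lower by edgeR's test, beside 4.19% of all genes. Within Bnc1+/+ their sum was thus as even as Malat1, and in Bnc1tr/tr replicate 2 was the highest for both.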

How the data were processed

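Ovary total RNA was extracted with TRIzol, and single-end libraries were made by the authors (Ion Total RNA-Seq kit, Ion Proton). The deposited values are raw counts of reads per gene and ovary, made by the authors without normalization; the aligner, counting tool, annotation and any rRNA removal are not given in the sources used here. The submitters' processing notes name the builds mm10 and Sscrofa10.2 (a pig assembly) with no role. Positions and sequences came from GRCm38 with GENCODE M21 and RefSeq, matched by symbol.

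Genes were filtered with filterByExpr (minimum count 10) and compared with edgeR 4.0.16 (TMM, glmQLFit and glmQLFTest, R 4.3.3). Tests were two-sided, adjusted by Benjamini-Hochberg over 19423 genes, with a threshold of 0.05. The SE was the absolute log2 fold change divided by the square root of F. CPM were TMM-normalized, and SDs and correlations used log2 CPM with a prior count of 2. The totals were 28123709, 34406296 and 29680885 counts in Bnc1+/+ replicates 1, 4 and 7 and 27183636, 25247770 and 27315341 in Bnc1tr/tr replicates 1, 2 and 3. The script was tested on simulated counts. DESeq2 1.42.0, other scalings and filters, and omission of ovaries were alternatives.

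The 10 rows, the related lists and the marker lists were chosen with earlier results of these data known. Named genes were the 10 rows, Bnc1, list genes past the threshold with a mean of at least 1 CPM (up to 6 a list, 8 for imprinted genes), genes sharing a domain with Meg3 or H19 and, for 4 rows, the 3 genes with the highest correlation. Rtl1 and Ins2 did not pass the filter.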

Additional observations from a re-analysis of the deposited data

How the results depend on the processing

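No paired analysis was possible because the genotypes share only the replicate number 1, and the labels name no litter. According to the methods, mice were compared with littermates, so litters may be shared across genotypes in a way that could not be assigned. Leaving out Bnc1+/+ replicates 1 and 4, added after seeing the data, sets 1 ovary against 3 and assumes that the lone ovary varies like the others. Of all genes, 1372 passed the threshold; DESeq2 called 2420, that omission left 43, and omission of 1 ovary left 320 to 1282. Scaling by library size alone moved the median log2 fold change of all genes from 0.018 to 0.118 and the split from 559 higher and 813 lower to 1112 higher and 617 lower.

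Of the 10 noncoding RNAs, 4 passed; the number was 2 with at least 10 counts in every ovary (7 tested), 7 with DESeq2, 0 without Bnc1+/+ replicates 1 and 4, and 0 to 5 without 1 ovary. The counts of this paragraph stand beside 7.06% of all genes called in the main fit, 8.9% with library size alone and 4.82% without a filter. The share was 12.5% with DESeq2, 6.7% with at least 10 counts and 1.6% to 6.4% without 1 ovary. The 40 protein partners went from 0 to 2 (library size alone), 1 (no filter) and 2 (DESeq2), with 0 without any 1 ovary. The polymerase machinery went from 4 to 0 without Bnc1+/+ replicates 1 and 4 and to 0 to 2 without 1 ovary. The small structured RNAs went from 4 to 8 (no filter), 2 (at least 10 counts), 10 (DESeq2), 0 (without both) and 1 to 7 (without 1 ovary). The long noncoding RNAs went from 1 to 2 (no filter and DESeq2), 0 (without both) and 0 to 1 (without 1 ovary). The imprinted genes went from 2 to 6 (library size alone, no filter and DESeq2), 1 (at least 10 counts), 0 (without both) and 1 to 3 (without 1 ovary).

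The log2 ratio of 7SL RNA, -6.36, was -2.80 without both and -6.91 to -4.70 without 1 ovary. The difference in the share of counts held by the 10 rows, -1.25 percentage points, was -0.0402 without Rn18s-rs5, -0.0306 without both ovaries and -1.87 to -0.423 without 1. Sign reversals occurred for Rmrp (0.74) and Rpph1 (0.17) without both, for Mirg without Bnc1+/+ replicate 1, Bnc1+/+ replicate 7 or Bnc1tr/tr replicate 1 (range without 1 ovary -0.29 to 0.45), and for Bnc1 without Bnc1tr/tr replicate 1 (range -0.10 to 0.26). Fewer samples or other genes tested mark the omissions and filters; other causes were not tested. Under 10 counts, as for Rn7s1 in Bnc1tr/tr, depth limits the size of a fold change.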
